A study of Mus musculus with 3 samples.

Results

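The genes described are the 6 core members of the renin-angiotensin system that have a row of their own in the deposited count matrices of embryonic mouse kidney: Ren1, Agt, Ace, Agtr1a, Agtr2 and Atp6ap2, taken by symbol from 32285 genes. They were chosen by pathway and not by a rule on their values, though with earlier results of these data known. Single-cell RNA sequencing of whole kidney suspensions at E15.5 gave 3 libraries, 1 per group, and cells were kept when 1000 to 6000 genes were detected and at most 10% of UMIs (unique molecular identifiers, each tagging 1 captured transcript) were mitochondrial. This left 5233 cells of Enl-WT, 4144 of Enl-T1 and, treated, 2754 of Enl-T1 TDI-11055.

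Enl-WT kidneys were Enl +/+ Wt1 GFPCre/+, and Enl-T1 kidneys were Enl flox-T1/+ Wt1 GFPCre/+, in which Cre turns on 1 allele carrying the T1 insertion of ENL, a chromatin reader of acetylated histones. Both groups therefore carry the GFPCre knock-in, which inactivates 1 copy of Wt1 and drives Cre in Wt1-expressing nephron and stroma precursors, so the ureteric epithelium and the endothelium lie outside its main range. The third group was Enl-T1 with TDI-11055, an inhibitor of the ENL reader domain, given by mouth to the pregnant mother at 100 mg/kg once a day from E10.5 to E14.5. The other 2 libraries are labelled as untreated. Embryos were pooled within a library and no label ties a cell to an embryo. With 1 library per group no difference between groups could be tested, and the 95% intervals in parentheses (exact Poisson for levels, exact binomial for shares and for the split of counts behind a ratio) cover counting error only.

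Renin, a protease secreted by specialised mural cells of the renal arterioles, cuts angiotensinogen to angiotensin I, which angiotensin-converting enzyme trims to angiotensin II. The peptide acts through type 1 and type 2 receptors, and the fetal kidney is known for widespread type 2 receptor in its mesenchyme and for renin along its growing arteries. Loss of the pathway before birth is known to impair the tubules and the vessels of the kidney.

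The promoters of 3 members that differ in where their transcripts were found are shown, because they span the range from a gene held by few cells to one found in every class. Each covers 250 bases before and 50 bases from the RefSeq start site on, in GRCm38.p6, read on the gene's strand, which is the plus strand for all 3. Capitals mark TATAAA, the core of a TATA box, and TAAT, the core of homeodomain binding sites, where the letters stand on the gene strand in Ren1. The Ren1 window is chr1:133350424-133350723, that of Agtr2 is chrX:21484374-21484673 and that of Atp6ap2 is chrX:12587509-12587808.
Ren1: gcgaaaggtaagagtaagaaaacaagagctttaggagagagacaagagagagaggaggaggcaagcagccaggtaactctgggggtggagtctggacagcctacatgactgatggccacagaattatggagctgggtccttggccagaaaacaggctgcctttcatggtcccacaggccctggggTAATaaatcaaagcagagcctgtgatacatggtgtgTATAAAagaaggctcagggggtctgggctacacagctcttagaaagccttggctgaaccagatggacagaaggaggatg
Agtr2: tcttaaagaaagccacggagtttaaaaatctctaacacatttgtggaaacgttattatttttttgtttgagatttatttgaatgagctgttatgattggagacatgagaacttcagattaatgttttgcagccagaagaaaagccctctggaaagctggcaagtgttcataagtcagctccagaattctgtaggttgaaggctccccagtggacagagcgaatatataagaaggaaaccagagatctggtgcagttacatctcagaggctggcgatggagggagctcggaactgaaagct
Atp6ap2: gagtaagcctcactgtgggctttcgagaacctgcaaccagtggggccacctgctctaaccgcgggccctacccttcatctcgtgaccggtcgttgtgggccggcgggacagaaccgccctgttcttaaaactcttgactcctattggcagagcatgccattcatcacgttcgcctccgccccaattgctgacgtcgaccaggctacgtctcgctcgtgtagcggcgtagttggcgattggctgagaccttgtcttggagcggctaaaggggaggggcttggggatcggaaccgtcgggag

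The Ren1 window held TATAAA at position -29 from the start site and TAAT at -65 on the gene strand and at -128 on the other. Of 32851 promoters of the same length, 13.6% held TATAAA on either strand and 58.0% held TAAT. The Agtr2 window had TAAT at -132 on the gene strand and at -134 and -197 on the other, and no exact TATAAA. It does hold the similar letters tatataag, which the search did not count, so a TATA box there is not excluded. The Atp6ap2 window had neither TAAT nor TATAAA but held TGACG, the core of a cAMP response element, at -62, which 20.8% of promoters held on either strand. GC content was 51.3% with 1 CpG in Ren1, 41.3% with 5 in Agtr2 and 60.3% with 24 in Atp6ap2, against a median of 52.7% and 7 over all promoters. A motif match is a description of the letters and says nothing of binding in these cells. Of the other members, Agt held TATAAA at -30, Ace held it at -31 on the other strand, and Agtr1a is named only, since 5 of the 6 members matched an entry.

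The libraries differed in depth and make-up. Kept cells held a median of 5090 UMIs in Enl-WT, 9391 in Enl-T1 and 16931.5 with TDI-11055, of deposited totals of 37221435, 63336586 and 76619303, and the median ribosomal share of UMIs was 16.5% in Enl-WT against 26.8% and 27.8% in the others. Levels are therefore given as CPM, the UMIs of a gene summed over the cells of a class and scaled by the total of all their UMIs, and shares of cells with a UMI after thinning each cell to 2000 UMIs beside the unthinned share. Because 3′ tags are captured unequally from gene to gene, levels are compared between cells and libraries and not between genes. Clusters were named "-like" from marker genes that did not include the members. The summed markers of the renin/mesangial-like cells, Pdgfrb, Rgs5 and Notch3 among them, stood at 3738, 2832 and 2475 CPM in the 3 libraries in that order, against 413, 335 and 322 CPM in all other cells, and 10, 10 and 9 of 10 markers were detected. Proximal tubule-like cells numbered 146, 8 and 23 and podocyte-like cells 223, 37 and 30, and classes under 50 cells are given with their numbers and enter no ratio. The 8 Enl-T1 proximal tubule-like cells lacked Cubn, Slc3a1, Fbp1 and Spp2, and the 37 podocyte-like cells lacked Podxl, a defining podocyte marker, so these names are weak in that library. The libraries shared 5 to 8 kept barcodes per pair.

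Ren1, which encodes renin and lies on chromosome 1 at 133350510 to 133360325 on the plus strand (mm10), was by far most abundant in renin/mesangial-like cells, the mural cells of the glomerulus and its arterioles. In all kept cells it gave 2742 UMIs or 85.6 CPM (82.4 to 88.9) in Enl-WT. The Enl-T1 library gave 541 UMIs or 12.2 CPM (11.2 to 13.3), and the treated library 65 UMIs or 1.501 CPM (1.16 to 1.91). Ren1 was thus highest in Enl-WT and lowest in the treated library over all cells, and no 2 intervals overlapped. The intervals take UMIs as independent, whereas 5 cells held 85.8% of the Ren1 UMIs in Enl-T1. The order of the 2 Enl-T1 libraries turned in cells with Y-linked UMIs only, as given below. The ratio of Enl-T1 to Enl-WT was 0.143 (0.130 to 0.157), a log2 ratio of -2.81, or -2.48 relative to the median of all genes, which itself stood at -0.33. The treated library was at 0.123 (0.0933 to 0.159) of Enl-T1. Of all genes tested, 29.7% were more than 1.5-fold lower and 5.64% more than 1.5-fold higher in Enl-T1 relative to Enl-WT, and 10.7% lower and 5.99% higher with TDI-11055 than in Enl-T1. Of the members, 3 reached a mean of 5 CPM in the libraries compared; Ren1 alone of these was past 1.5-fold in the first comparison, and Ren1 and Agtr2, both lower, in the second. A count of 1 in 3 is not set against the background as a result.

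Within renin/mesangial-like cells Ren1 stood at 2598 CPM (2496 to 2702) in Enl-WT, from 2457 UMIs in 183 cells. Enl-T1 had 546 CPM (495 to 601) from 413 UMIs in 92 cells, and the treated library 81.2 CPM (55.6 to 115) from 32 UMIs in 24 cells. The order was the same as over the whole kidney, with a ratio of 0.210 (0.189 to 0.233) of Enl-T1 to Enl-WT, a log2 ratio of -2.25. In Enl-T1 1 cell held 250 of the 413 UMIs, and without the 5 richest cells of each library the log2 ratio was -4.46. That cut takes 5 of the 12 cells of the class with a Ren1 UMI in Enl-T1 but 5 of 53 in Enl-WT, so it bears more on Enl-T1 and is not a neutral check. In this class, 32.7% of all genes tested were more than 1.5-fold lower in Enl-T1 and 12.8% more than 1.5-fold higher. The class itself made up 3.50% (3.02 to 4.03) of the Enl-WT library, 2.22% (1.79 to 2.72) of the Enl-T1 library and 0.871% (0.559 to 1.29) of the treated one. Both the number of these cells and the Ren1 level within them were therefore lower in the Enl-T1 library than in the Enl-WT library. With TDI-11055 both were lower again over all cells, but in cells with Y-linked UMIs only the level in the class was 0 in Enl-T1, which allows up to 19.5 CPM, and 159.6 CPM when treated. Within the stroma lineage the class made up 183 of 868, 92 of 1397 and 24 of 270 cells. Naming markers of the class moved as well in Enl-T1: Gata3 was at 302 CPM in Enl-WT and 33.1 in Enl-T1, Des at 172 and 47.6, and Itga8 at 92.0 and 33.1. Tbx2, Cspg4, Notch3 and Mef2c were lower too, at ratios of 0.417 (0.310 to 0.555), 0.586 (0.474 to 0.722), 0.688 (0.528 to 0.891) and 0.879 (0.791 to 0.976). Pdgfrb was at 470 and 516 CPM and Rgs5 at 1077 and 989, with ratio intervals that hold 1. That of Rgs4, from 12 UMIs in each library, holds 1 as well. How far the make-up of the class contributes to the Ren1 ratio was not tested.

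The share of renin/mesangial-like cells with a Ren1 UMI at 2000 UMIs per cell was 22.2% (16.4 to 29.0) in Enl-WT, 12.0% (6.12 to 20.4) in Enl-T1 and 4.17% (0.105 to 21.1) in the treated library, and without thinning 29.0%, 13.0% and 12.5%, at median depths of 4563, 7534 and 14660 UMIs. In ureteric epithelium, which should lack renin, the thinned shares were 0.523%, 0.257% and 0.395% and the unthinned shares 1.83%, 0.853% and 1.76%, at 5225, 11695 and 19318 UMIs. Most cells of the class therefore held no Ren1 UMI in any library, and the intervals of the thinned shares in Enl-T1 and with TDI-11055 overlap each other and that of Enl-WT.

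**Figure D1:**
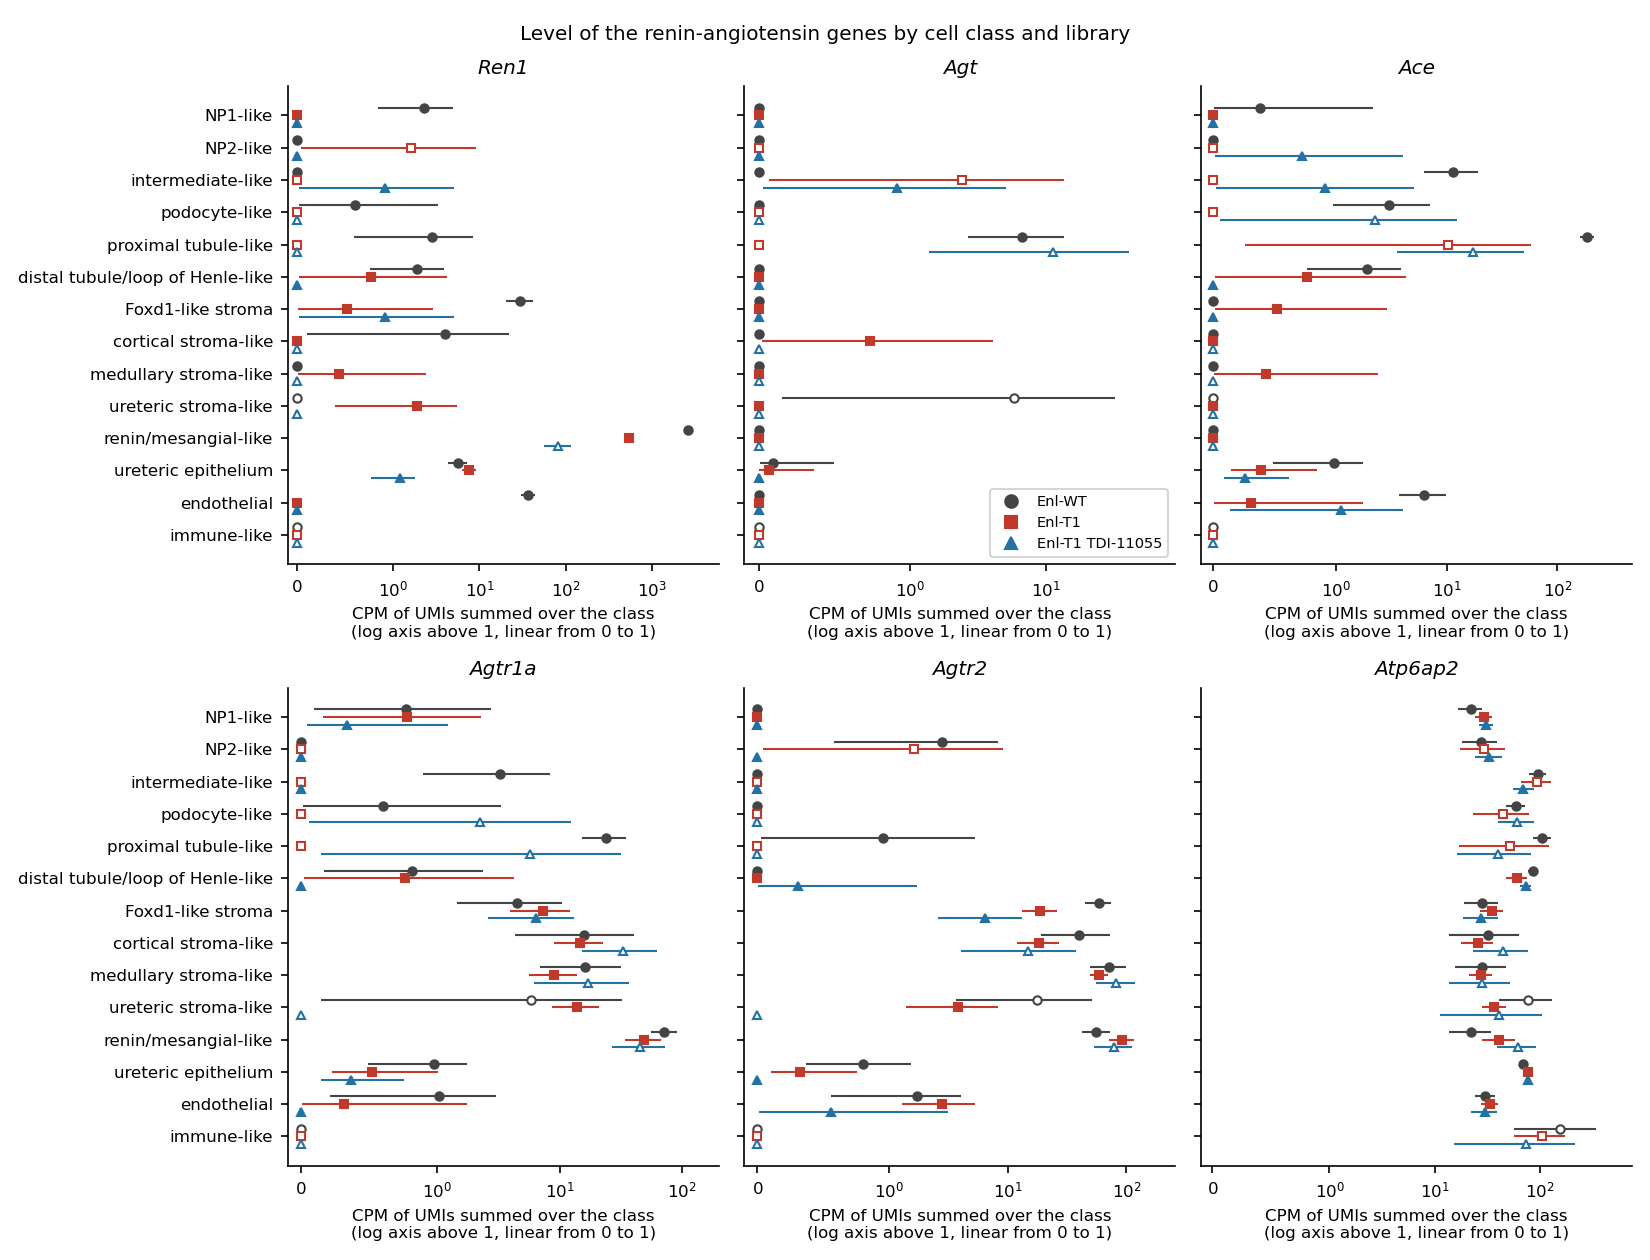
Level of each member in each named cell class (CPM of UMIs summed over the class, log axis above 1 and linear from 0 to 1) for Enl-WT (circles), Enl-T1 (squares) and Enl-T1 TDI-11055 (triangles), with exact Poisson 95% intervals where the count is above 0 and open symbols for classes under 50 cells. Unnamed nephron and stroma cells are left out. Ren1 peaks in renin/mesangial-like cells at 2598, 546 and 81.2 CPM, Ace in Enl-WT proximal tubule-like cells at 187 CPM, both receptors in stroma, and Atp6ap2 is present in every class.

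Ren1 UMIs were concentrated in few cells. In Enl-WT, 149 cells held at least 1 UMI, 51 at least 3 and 32 at least 10, and the richest cell held 399, or 14.6% of the library's Ren1. In Enl-T1 the numbers were 30, 11 and 8, with 250 UMIs or 46.2% in the richest cell. With TDI-11055 they were 26, 5 and 2, with 16 UMIs or 24.6% in the richest cell. Cells of each count were thus fewer in both Enl-T1 libraries than in Enl-WT, and those libraries held fewer kept cells at greater depth. As shares of kept cells, 2.85%, 0.724% and 0.944% held at least 1 UMI in Enl-WT, Enl-T1 and the treated library. For at least 3 UMIs the shares were 0.975%, 0.265% and 0.182%. Among cells with at least 10 UMIs the median level was 7447.9 CPM in Enl-WT, 3931.0 in Enl-T1 and 1482.7 with TDI-11055. Cells with at least 100 Ren1 UMIs numbered 7, 2 and 0. Of the cells with at least 10, 29 of 32, 7 of 8 and 2 of 2 were renin/mesangial-like, and of those outside the class, 2 of 3 in Enl-WT and 1 of 1 in Enl-T1 were called doublets by Scrublet.

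**Figure D2:**
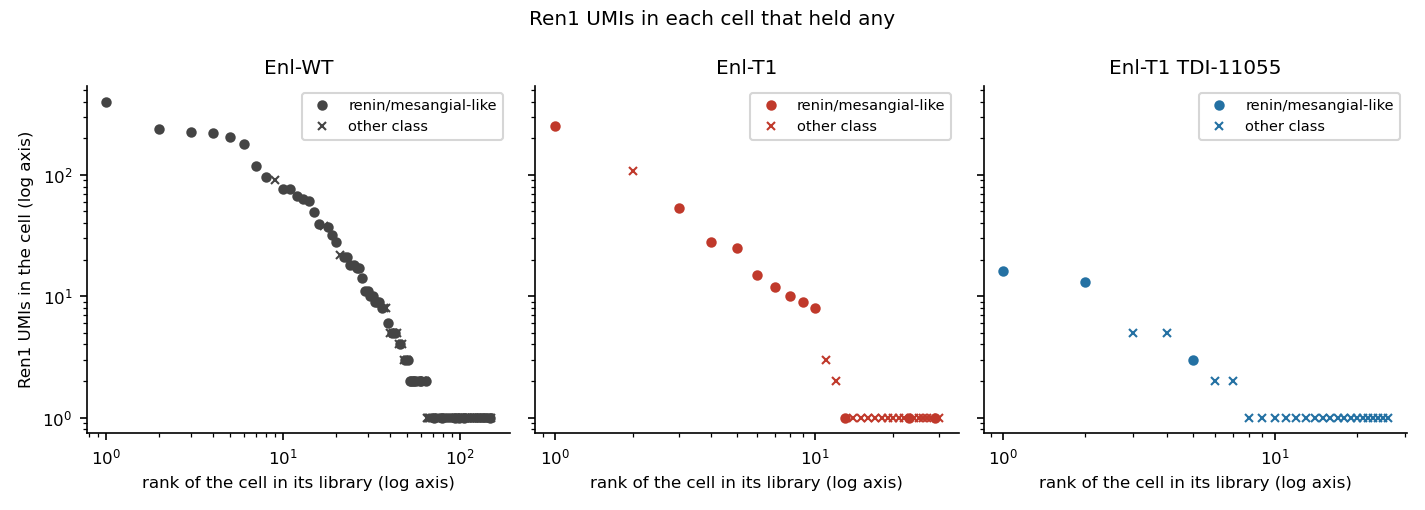
Ren1 UMIs in each cell that held any (y axis, log) against the rank of the cell in its library (x axis, log), with renin/mesangial-like cells as dots and cells of other classes as crosses. The curve starts at 399 UMIs in Enl-WT, 250 in Enl-T1 and 16 with TDI-11055, and most cells with 1 or 2 UMIs belong to other classes.

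The 5 richest cells held 46.8% of all Ren1 UMIs in Enl-WT, 85.8% in Enl-T1 and 64.6% with TDI-11055, and renin/mesangial-like cells together held 89.6%, 76.3% and 49.2%. Without the 5 richest cells of each library the log2 ratio of Enl-T1 to Enl-WT was -4.71 and that of the treated library to Enl-T1 -1.71, and with a stricter cell filter they were -3.94 and -0.81. In ureteric epithelium Ren1 stood at 5.61, 7.63 and 1.21 CPM, but 108 of the 118 Enl-T1 UMIs came from 1 cell. In endothelial cells it gave 106 UMIs or 36.7 CPM in Enl-WT, 91 of them in 1 cell that also held 32 UMIs of Akr1b7 and 16 of the endothelial gene Pecam1, and 0 in the other libraries, which allows up to 0.938 CPM in Enl-T1 and 1.68 CPM with TDI-11055. Foxd1-like stroma, the progenitor pool from which renin cells are known to descend, held 33 Ren1 UMIs or 29.6 CPM in Enl-WT and 1 UMI in each of the others, a ratio of 0.0175 (0.000431 to 0.105) of Enl-T1 to Enl-WT. The name of this class is weak too, since it pools a cluster of 140, 107 and 54 cells led by genes such as Ntn1 and Foxd1 with one of 85, 100 and 43 cells whose leading genes are those of mitosis, and the counterpart of the first was left unnamed when cells were clustered on all variable genes. Over the whole stroma lineage Ren1 was at 624, 37.8 and 11.8 CPM, with a ratio of 0.0606 (0.0545 to 0.0672) for Enl-T1 over Enl-WT and 0.312 (0.2204 to 0.430) for TDI-11055 over Enl-T1. In the stroma, 29.7% of all genes tested were more than 1.5-fold lower in Enl-T1 relative to Enl-WT. The stroma also differed in size, 868, 1397 and 270 cells or 16.6%, 33.7% and 9.80% of each library, so that its Ren1 level moves with how many other stroma cells share it.

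The pooled embryos could be partly told apart by sex, because Xist is transcribed in female cells and genes of the Y chromosome in male cells. Cells with Y-linked UMIs only made up 46.5%, 16.5% and 35.4% of the Enl-WT, Enl-T1 and treated libraries, and cells with Xist UMIs only 26.5%, 73.3% and 35.1%. In Enl-WT, Ren1 stood at 80.3 CPM in Y-only cells and at 73.1 CPM in Xist-only cells, with 73 and 56 renin/mesangial-like cells and 17 and 16 cells of at least 3 Ren1 UMIs. Both sexes thus held renin cells in that library. In Enl-T1, the 3036 Xist-only cells gave 534 UMIs or 16.2 CPM and all 11 cells with at least 3 Ren1 UMIs, whereas the 683 Y-only cells gave 2 UMIs or 0.264 CPM, and their 17 renin/mesangial-like cells held 0, which allows up to 19.5 CPM in that class. With TDI-11055 the order was the other way round, 3.05 CPM from 56 UMIs in 976 Y-only cells against 1 UMI or 0.054 CPM in 968 Xist-only cells, and 4 of the 5 cells with at least 3 Ren1 UMIs were Y-only. Ren1 was therefore lower in Enl-T1 relative to Enl-WT among cells of either sex, at a log2 ratio of -8.25 in Y-only and -2.17 in Xist-only cells. The ratio of the treated to the untreated Enl-T1 library changed its sign with the sex compared, +3.53 in Y-only and -8.23 in Xist-only cells. Sex, embryo and the few richest cells cannot be told apart in these pools.

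The class was made of 2 clusters. The first held 124, 65 and 20 cells with Ren1 at 4331, 912 and 106 CPM, and the second held 59, 27 and 4 cells with 521, 31.8 and 0 CPM, so that Ren1 was lower in Enl-T1 relative to Enl-WT in both. In Enl-WT, the 39 cells of the class with at least 3 Ren1 UMIs differed from the other 144 in further genes. Akr1b7, an aldo-keto reductase known to mark renin cells, was at 2501 against 536 CPM. The type 1 receptor gene was at 73.1 and 71.5 CPM, the type 2 receptor gene at 34.1 (13.7 to 70.3, 7 UMIs) and 62.1 CPM (45.5 to 82.8) and Atp6ap2 at 34.1 (13.7 to 70.3, 7 UMIs) and 18.9 CPM (10.3 to 31.7), with intervals that overlap, while Agt and Ace were at 0 in both. In Enl-T1, where 9 cells of the class held at least 3 Ren1 UMIs, Akr1b7 was at 591 CPM against 78.9 in the other 83, and Agtr2, from 2 UMIs, at 33.8 (4.09 to 121.9) against 96.1 (74.5 to 122.1). The cells rich in Ren1 were also richer in Akr1b7 in both untreated libraries, and no difference in the receptor genes or Atp6ap2 was detectable at this depth.

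Agt, which encodes angiotensinogen, the substrate of renin made mainly by the liver and in the kidney by the proximal tubule, lies on chromosome 8 at 124556534 to 124569706 on the minus strand. It was nearly absent, with 10, 5 and 3 UMIs or 0.312, 0.113 and 0.0693 CPM in all kept cells of the Enl-WT, Enl-T1 and treated libraries, and never more than 1 UMI in a cell. Of the Enl-WT UMIs 7 fell in proximal tubule-like cells, at 6.66 CPM (2.68 to 13.7), and 2 of the 3 treated UMIs fell there too. Among 8 Enl-T1 proximal tubule-like cells there were none. The ratio of Enl-T1 to Enl-WT over all cells, 0.362 (0.0971 to 1.16), has an interval that holds 1. Renin/mesangial-like cells held no Agt in any library, which allows up to 3.17, 3.97 and 7.62 CPM.

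Ace, which encodes the converting enzyme and lies on chromosome 11 at 105967945 to 105989964 on the plus strand, overlapped by Gm11651 on the other strand, marked the proximal tubule-like cells of Enl-WT. All kept cells gave 254 UMIs or 7.93 CPM (6.98 to 8.97) in Enl-WT, 12 UMIs or 0.271 CPM (0.140 to 0.474) in Enl-T1 and 15 UMIs or 0.346 CPM in the treated library. Both Enl-T1 libraries were far below Enl-WT, with a ratio of 0.0342 (0.0175 to 0.0608) in the untreated one, and TDI-11055 over Enl-T1 was at 1.28 (0.558 to 2.99), an interval that holds 1. Ace was under the minimum mean of 5 CPM over all kept cells and enters no count of genes there.

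Of the 254 Enl-WT Ace UMIs, 196 came from the 146 proximal tubule-like cells, at 187 CPM (161 to 215). The 8 Enl-T1 cells of that name gave 1 UMI or 10.3 CPM (0.262 to 57.6) and the 23 treated cells 3 UMIs or 17.1 CPM (3.53 to 50.02). The summed naming markers of the class were also lower there, at 9578 CPM in Enl-WT, 1643 in Enl-T1 and 2967 with TDI-11055. The cells compared thus differ in more than Ace, and whether Ace was lower in comparable proximal tubule cells was not tested. At 2000 UMIs, 30.3% (23.0 to 38.5) of the Enl-WT proximal tubule-like cells held Ace and 61.6% did without thinning, against 0.232% and 0.629% of ureteric epithelium. Intermediate-like cells, the precursors that follow the committed progenitors, held 11.51 CPM (6.29 to 19.3) in Enl-WT, and podocyte-like cells 3.002 CPM. Ace is also known from endothelium, where it stood at 6.23, 0.313 and 1.12 CPM from 18, 1 and 2 UMIs. The stroma lineage held 1, 2 and 0 UMIs.

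The cell filter bore on Ace. Barcodes left out by it in Enl-WT held 142 Ace UMIs or 27.4 CPM, and 114 of these came from 340 barcodes removed for their mitochondrial share, where Ace reached 53.4 CPM. The summed proximal tubule markers were at 3699 CPM in those barcodes against 433 CPM in the kept Enl-WT cells. In Enl-T1 and with TDI-11055 the same markers were at 31.5 and 49.5 CPM in such barcodes and at 22.1 and 41.6 CPM in kept cells. The filter thus took more proximal tubule RNA from Enl-WT than from the other libraries, and removed barcodes too held more Ace in Enl-WT, 27.4 CPM against 0.366 in Enl-T1 and 0.510 with TDI-11055.

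Agtr1a, the main type 1 receptor gene in the mouse kidney, through which angiotensin II constricts vessels, lies on chromosome 13 at 30336441 to 30382867 on the plus strand, and Gm48161 overlaps it on the same strand. It was highest in renin/mesangial-like cells in each library. There it stood at 71.9 CPM (55.8 to 91.1) in Enl-WT, 48.9 (34.4 to 67.4) in Enl-T1 and 45.7 (27.1 to 72.2) in the treated library, from 68, 37 and 18 UMIs. These levels overlapped in their intervals, and the ratio of Enl-T1 to Enl-WT was 0.680 (0.443 to 1.03). After thinning, 12.2%, 10.9% and 4.17% of the class held a UMI, and 26.2%, 26.1% and 37.5% before, whereas ureteric epithelium held 0.174% and 0.0856% in the untreated libraries after thinning. The receptor gene thus differed less between the libraries than Ren1 did in the same cells, in value and without a test of that difference.

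Proximal tubule-like cells came next in Enl-WT, at 23.8 CPM (15.4 to 35.1) from 25 UMIs, with 0 in the 8 Enl-T1 cells and 1 UMI in the 23 treated cells. Cortical stroma-like cells held 15.9, 14.7 and 33.2 CPM, medullary stroma-like cells 16.2, 9.07 and 17.0, and Foxd1-like stroma 4.48, 7.27 and 6.43. In Enl-WT the order ran from renin/mesangial-like to proximal tubule-like, medullary and cortical stroma-like cells, and the last 3 do not differ beyond their counting intervals. Over the stroma lineage Agtr1a was at 22.8, 12.3 and 14.7 CPM, with ratios of 0.538 (0.410 to 0.708) for Enl-T1 over Enl-WT and 1.19 (0.848 to 1.66) for TDI-11055 over Enl-T1. In all kept cells it was at 4.43, 3.62 and 1.45 CPM from 142, 160 and 63 UMIs. The whole-kidney ratio was 0.816 (0.647 to 1.03) in the first comparison and 0.402 (0.295 to 0.541) in the second, beside a stroma share that was 9.80% of treated and 33.7% of Enl-T1 cells.

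Agtr2, the type 2 receptor gene, which opposes many actions of the type 1 receptor and lies on chromosome X at 21484544 to 21489164 on the plus strand, was found across the stroma and nearly nowhere else. The stroma lineage held 58.4 CPM (51.2 to 66.3) in Enl-WT, 33.9 (30.6 to 37.5) in Enl-T1 and 25.9 (20.8 to 31.8) in the treated library. NP1-like cells, the self-renewing nephron progenitors, held none in any library, and the nephron lineage gave 4, 20 and 16 UMIs, of which 10 in Enl-T1 and 14 in the treated library came from 1 cell each. Ratios in the stroma were 0.581 (0.492 to 0.686) for Enl-T1 over Enl-WT and 0.762 (0.599 to 0.962) for TDI-11055 over Enl-T1. In the stroma 4 members passed the minimum of 5 CPM in each comparison, and 3 of 4, Ren1, Agtr1a and Agtr2, were more than 1.5-fold lower in Enl-T1 relative to Enl-WT, beside 29.7% of all genes lower and 6.92% higher, while only Ren1 was in the second comparison, beside 12.1% lower.

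The stroma classes differed from each other. In Foxd1-like stroma Agtr2 was at 58.3 CPM (45.0 to 74.3) in Enl-WT, 18.7 (13.1 to 25.9) in Enl-T1 and 6.43 (2.58 to 13.2) with TDI-11055. In renin/mesangial-like cells it was at 56.0 (42.0 to 73.3), 91.2 (71.0 to 115) and 78.7 (53.5 to 112) CPM from 53, 69 and 31 UMIs. In medullary stroma-like cells it was at 70.8 (49.3 to 98.4), 58.7 (49.3 to 69.5) and 82.1 (55.0 to 118) CPM. Agtr2 was thus lowest in the treated library in Foxd1-like stroma and lowest in Enl-WT in renin/mesangial-like cells, with overlapping intervals in medullary stroma-like cells. The name Foxd1-like stroma is weak here too, since it pools a cluster whose leading genes are those of mitosis. The ratios of Enl-T1 to Enl-WT were 0.321 (0.207 to 0.489), 1.63 (1.12 to 2.37) and 0.830 (0.569 to 1.24) in that order, and 0.462 (0.214 to 1.08) in cortical stroma-like cells, where levels were 39.8, 18.4 and 14.7 CPM. In Foxd1-like stroma TDI-11055 over Enl-T1 was at 0.344 (0.129 to 0.784).

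Thinned shares of cells with an Agtr2 UMI were 10.1%, 2.43% and 0% in Foxd1-like stroma, where the last allows up to 3.09%, and 20.9%, 10.1% and 5.15% without thinning. In renin/mesangial-like cells they were 11.1%, 14.1% and 16.7%, and 20.8%, 37.0% and 62.5% without thinning. In medullary stroma-like cells they were 12.8%, 8.65% and 7.14%, with intervals that overlap. Ureteric epithelium, which should lack the gene, held 0.116% and 0.0856% in the untreated libraries and 0.457% and 0.426% without thinning. The thinned shares were in the order of the levels in Foxd1-like stroma. In renin/mesangial-like cells the shares come from classes of 183, 92 and 24 cells, and their order is not read as a difference. Shares and levels rest on the same UMIs, so neither is a check of the other. The level was highest in medullary stroma-like cells in Enl-WT and in renin/mesangial-like cells in Enl-T1, and the Enl-WT levels of these classes and of Foxd1-like stroma did not differ beyond their intervals. Cells of the stroma with UMIs of both receptors numbered 16 of 868, 28 of 1397 and 17 of 270, where 12.6, 16.9 and 6.16 would hold both if the receptors were independent of each other and of depth. Over all kept cells Agtr2 was at 7.99, 9.27 and 2.47 CPM. The whole-kidney ratio of Enl-T1 to Enl-WT was 1.16 (0.990 to 1.36), a log2 ratio of 0.21 or 0.54 relative to the median of all genes, and thus opposite in sign to that in the stroma, of which the Enl-T1 library held more. With no cell filter it was -0.056. TDI-11055 over Enl-T1 was at 0.266 (0.213 to 0.330).

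**Figure D3:**
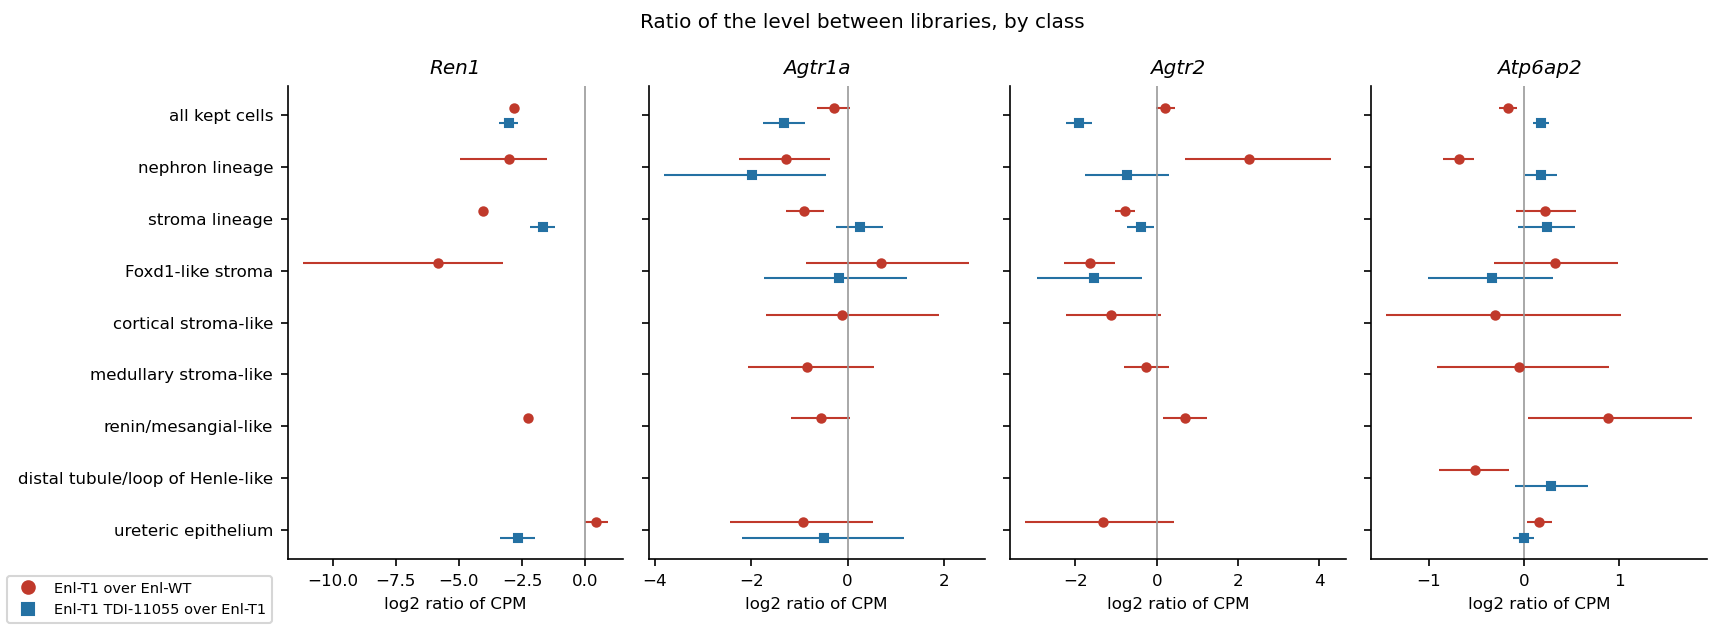
Log2 ratio of CPM between libraries by cell class (x axis) for Ren1, Agtr1a, Agtr2 and Atp6ap2, as circles for Enl-T1 over Enl-WT and squares for the treated over the untreated Enl-T1 library, with exact 95% intervals; classes under 50 cells in either library, with a count of 0 or with under 10 UMIs together are left out. Ren1 is lower in Enl-T1 in the stroma classes shown, whereas Agtr2 lies below 0 in Foxd1-like stroma and above 0 in renin/mesangial-like cells.

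Atp6ap2, which encodes the prorenin receptor and is also an accessory subunit of the V-ATPase proton pump, lies on chromosome X at 12587801 to 12617049 on the plus strand and was the only member found in every class of every library. All kept cells held 54.9 CPM in Enl-WT, 48.9 in Enl-T1 and 55.4 with TDI-11055, from 1757, 2162 and 2398 UMIs. The ratio of Enl-T1 to Enl-WT was 0.891 (0.837 to 0.9499), a log2 ratio of -0.17, which is 0.16 relative to the median of all genes, so the direction turned with the scaling. TDI-11055 over Enl-T1 was at 1.13 (1.07 to 1.20). At equal depth 1 UMI or more was found in 9.73%, 9.35% and 9.58% of cells, against 24.9%, 36.1% and 49.0% without thinning, so that the order of the unthinned shares was that of the depths.

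Epithelia held most of it. Proximal tubule-like cells had 105 CPM (86.1 to 126) in Enl-WT, intermediate-like cells 94.6, distal tubule/loop of Henle-like cells 85.2 (76.1 to 95.2) and ureteric epithelium 68.2. Podocyte-like cells followed at 58.8, while NP1-like cells stood at 21.9, renin/mesangial-like cells at 22.2 and endothelial cells at 30.1 CPM, beside 27.2 over the whole stroma lineage. The first 2 do not differ beyond their intervals. In Enl-T1 ureteric epithelium led the classes of at least 50 cells at 76.3 CPM, and with TDI-11055 at 76.1.

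The ratio of Enl-T1 to Enl-WT differed in sign between classes. It was 0.700 (0.539 to 0.899) in distal tubule/loop of Henle-like cells, at 85.2 and 59.7 CPM, and 0.623 (0.556 to 0.697) over the nephron lineage, at 57.0 and 35.5 CPM. The fall was not shared by all nephron cells, since the log2 ratio was 0.42 in NP1-like and 0.33 in unnamed nephron cells. Distal tubule/loop of Henle-like cells made up 587 of 2213 nephron cells in Enl-WT and 108 of 1299 in Enl-T1. Unnamed nephron cells numbered 455 in Enl-WT and 777 in Enl-T1, so most nephron cells of Enl-T1 carry no class name. How far this make-up contributes to the lineage ratio was not tested. Ureteric epithelium, outside the main range of the Cre, was at 1.12 (1.02 to 1.23), and with TDI-11055 at 0.998 of Enl-T1, where 7.52% of all genes were more than 1.5-fold higher and 9.56% lower. Renin/mesangial-like cells were at 22.2 CPM (13.7 to 33.9) in Enl-WT, 41.0 (27.8 to 58.2) in Enl-T1 and 60.9 (39.0 to 90.7) in the treated library, a ratio of 1.85 (1.03 to 3.38) between the first 2. The intervals of neighbouring libraries overlap, and the treated value comes from 24 cells. In value the order of the libraries was the reverse of that of Ren1 over all cells of the class. The Ren1 step from Enl-T1 to the treated library differed in sign between the sexes, and no relation between the 2 genes was tested. In the nephron lineage 2 members passed the minimum and both, Ace and Atp6ap2, were more than 1.5-fold lower in Enl-T1, beside 38.8% of all genes, and 5.54% were higher. With TDI-11055, where 7.45% of genes were lower than in Enl-T1, Atp6ap2 was not past 1.5-fold in that lineage. In renin/mesangial-like cells 4 passed, Agtr2 and Atp6ap2 being more than 1.5-fold higher and Ren1 more than 1.5-fold lower, beside 12.8% and 32.7% of all genes.

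Further genes of the pathway came from 3 lists. Of 21 peptidases, receptors and partners of the renin-angiotensin system with a row, 13 reached a mean of 5 CPM in Enl-WT and Enl-T1, and 6 of these were more than 1.5-fold lower in Enl-T1 and 0 higher, beside 29.7% and 5.64% of all genes, with a median log2 ratio of -0.43 against -0.33 over all genes. With TDI-11055, 1 of 13 was higher than in Enl-T1, the endopeptidase gene Thop1 at 1.71, and 2 were lower, among them the aminopeptidase gene Lnpep at 0.595, beside 5.99% of all genes higher and 10.7% lower. In the nephron lineage 8 of 13 were lower in Enl-T1, beside 38.8% of all genes, and in the stroma 5 of 13, Enpep, Mme, Prep, Nln and Lnpep, beside 29.7%. Genes of the lists that stand among 5 or fewer counted, such as Lnpep and Thop1, were named after their values were seen.

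Peptidases that break down angiotensins were prominent in podocyte-like and proximal tubule-like cells. Enpep, which makes angiotensin III from angiotensin II, was at 838 CPM in Enl-WT podocyte-like cells and at 100 and 176 in the 37 and 30 cells of the other libraries. Mme, neprilysin, was at 392.05, 44.5 and 75.8 CPM there, and Anpep, aminopeptidase N, at 268, 31.0 and 57.1 CPM in proximal tubule-like cells. Both Enl-T1 libraries were below Enl-WT in these small classes. Ctsb, cathepsin B, was at 181, 20.7 and 85.6 CPM in proximal tubule-like cells.

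In renin/mesangial-like cells Mme was more than 1.5-fold higher in Enl-T1, at a ratio of 2.08 to Enl-WT, and 5 of the 12 genes of the list tested there, Enpep, Nln, Lnpep, Rnpep and Ctsb, were lower, beside 12.8% of all genes higher and 32.7% lower. Among the rest, Prcp, a carboxypeptidase of angiotensin II, was at 62.7, 123 and 88.3 CPM in endothelial cells, with a ratio of 1.96 (1.64 to 2.35) of Enl-T1 to Enl-WT. The oligopeptidases Prep and Nln were at ratios of 0.637 (0.442 to 0.898) and 0.561 (0.346 to 0.874) in distal tubule/loop of Henle-like cells. The second type 1 receptor gene, Agtr1b, and Mas1, a receptor for angiotensin 1-7, did not reach 10 CPM in any class, at most 2.02 and 1.47 CPM, and Cma1, a chymase that can make angiotensin II, reached 0.346 CPM.

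The V-ATPase list holds the pump to which Atp6ap2 belongs. Of its 24 genes 17 were tested in all kept cells, and 5, Atp6v0a2, Atp6v0a4, Atp6v1a, Atp6v1b2 and Atp6v1h, were more than 1.5-fold lower and 0 higher in Enl-T1, beside 29.7% and 5.64% of all genes, with a median log2 ratio of -0.13 against -0.33 over all genes. With TDI-11055, 1 of 16 was lower, Atp6v0a1 at 0.649 of Enl-T1, beside 10.7% of all genes. In the nephron lineage 8 of 17 were lower in Enl-T1, beside 38.8%, and in ureteric epithelium 2 of 16, Atp6v0e and Atp6v1e1, were higher and 3, Atp6v0a2, Atp6v0a4 and Atp6v1b2, lower, where 5.85% of all genes were higher and 27.1% lower. Atp6v1b1, the B1 subunit of the kidney's acid-secreting cells, was at 29.8 CPM in Enl-WT distal tubule/loop of Henle-like cells, 3.82 in Enl-T1 and 6.16 with TDI-11055, a ratio of 0.128 (0.0409 to 0.309). Atp6v1g3 and Atp6v0d2, subunits of the same restricted kind, gave 103 and 52 UMIs there in Enl-WT, 0 and 0 in Enl-T1, which allows up to 2.29 CPM, and 31 and 19 in the treated library. These 3 genes were lowest in Enl-T1, with the treated library between it and Enl-WT.

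Subunits found in all cells did not share that order. Atp6v0e was at 161, 260 and 161 CPM in ureteric epithelium, with ratios of 1.61 (1.53 to 1.71) for Enl-T1 over Enl-WT and 0.619 (0.590 to 0.649) for TDI-11055 over Enl-T1. Atp6v1f was at 224, 289 and 250 CPM there. In proximal tubule-like cells of Enl-WT, Atp6v1a was at 636, Atp6v0c at 518, Atp6v1g1 at 394 and Atp6v0b at 251 CPM. Atp6v0e2 was at 19.2, 15.1 and 22.9 CPM in NP1-like cells, and 1.52-fold higher with TDI-11055 than in Enl-T1.

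The renin cell list holds 14 genes known for the identity or the regulation of renin cells. In all kept cells 11 were tested, of which 1, Ebf1 at 1.57, was more than 1.5-fold higher and 5, Akr1b7, Gja4, Gja5, Crebbp and Ep300, lower in Enl-T1, beside 5.64% and 29.7% of all genes. In renin/mesangial-like cells 14 were tested, of which 2, Foxd1 and Nr1h3, were higher and 4, Akr1b7, Gja4, Gja5 and Adrb1, lower, where 12.8% of all genes were higher and 32.7% lower. Akr1b7 was at 962, 119 and 142 CPM in that class, a ratio of 0.124 (0.0985 to 0.154). Akr1b7 and Ren1 were thus both lowest in the Enl-T1 libraries, at 546 and 81.2 CPM for Ren1 without and with TDI-11055, a step whose sign differed between the sexes as described above.

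Gja5, connexin 40, through which renin cells are coupled, was at 97.3, 6.61 and 7.62 CPM in renin/mesangial-like cells, a ratio of 0.0680 (0.0216 to 0.164), and at 107, 16.9 and 9.51 CPM in endothelial cells, a ratio of 0.157 (0.116 to 0.211). Gja4, connexin 37, was at 185, 66.3 and 92.3 CPM in endothelial cells. Adrb1, the beta-1 receptor through which nerves release renin, gave 13 UMIs or 13.7 CPM in Enl-WT renin/mesangial-like cells and 0 in the others, which allows up to 3.97 and 7.62 CPM. All 3 genes were lower in both Enl-T1 libraries than in Enl-WT in these classes.

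Of the other genes, Ebf1, a transcription factor, was at 849, 986 and 741 CPM in renin/mesangial-like cells, Gnas, which encodes a G-protein alpha subunit, at 3083, 3111 and 3656 CPM in endothelial cells and Nfib at 540, 428 and 256 CPM there. Crebbp was at 266, 124 and 79.0 CPM in Foxd1-like stroma, Ep300 at 130, 82.6 and 68.1 CPM in ureteric epithelium and Creb1 at 114, 66.5 and 52.9 CPM in NP1-like cells, all lower in Enl-T1 by more than 1.5-fold and lower again with TDI-11055. Foxd1, a naming marker of Foxd1-like stroma, stood at 536, 378 and 473 CPM in it. In renin/mesangial-like cells Foxd1 was at 37.0, 82.0 and 122 CPM, with a ratio of 2.22 (1.44 to 3.45). In that class Foxd1 was thus higher, and Ren1, Akr1b7, Gja4, Gja5 and Adrb1 were lower, in Enl-T1 relative to Enl-WT. Of the 14 genes of the list tested there, 2 were higher and 4 lower, beside 12.8% and 32.7% of all genes. These counts are near the shares of all genes and are not read as a change in the state of the class. The other gene of the list that was higher there, Nr1h3, rested on 1 and 7 UMIs.

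**Figure D4:**
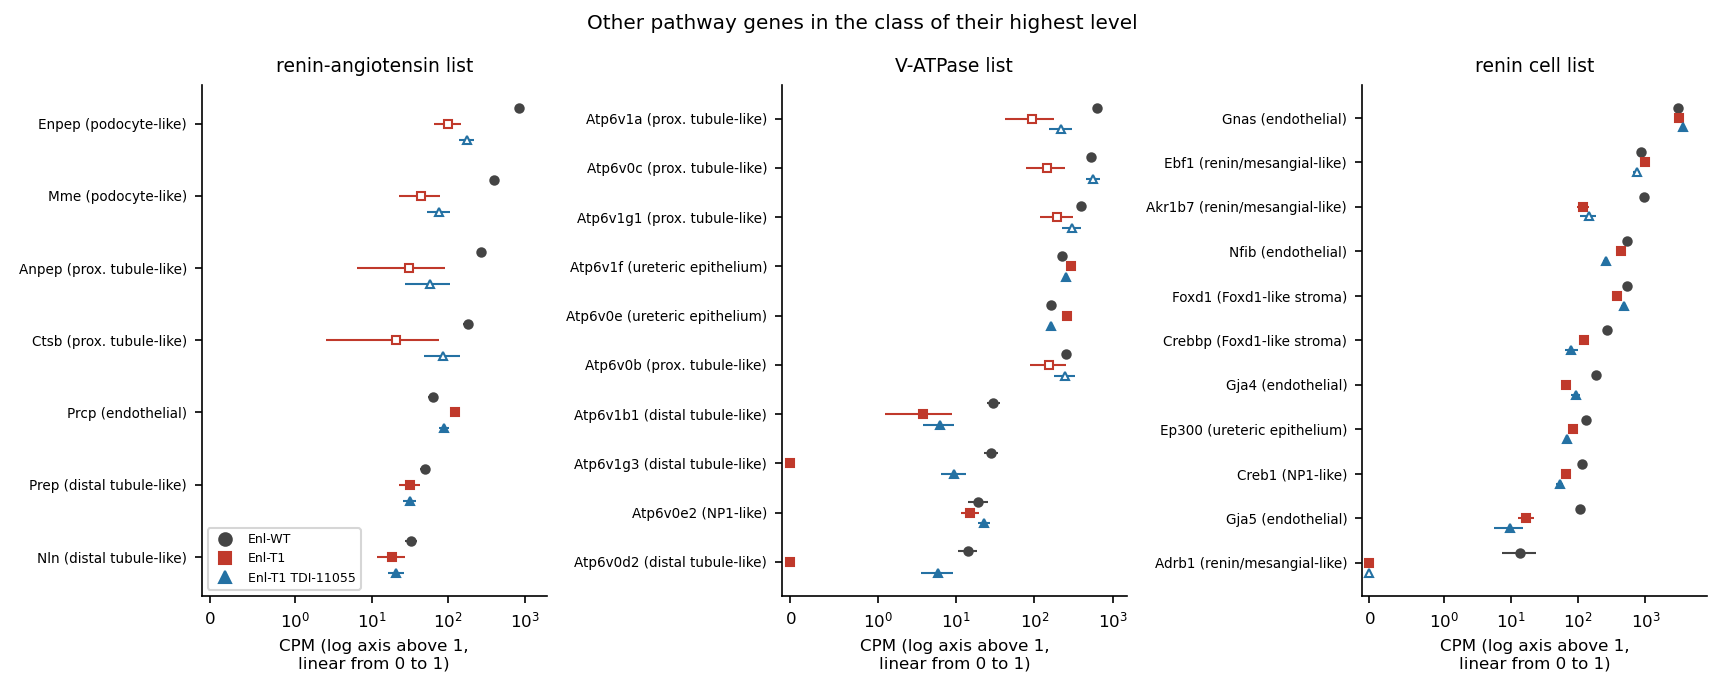
Level of other pathway genes (CPM, log axis above 1 and linear from 0 to 1) in the class given in parentheses, where the gene was highest, for Enl-WT (circles), Enl-T1 (squares) and Enl-T1 TDI-11055 (triangles), with exact Poisson 95% intervals where the count is above 0 and open symbols for classes under 50 cells. Akr1b7 lies at 962, 119 and 142 CPM, while Gnas and Ebf1 change little between libraries.

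The genes whose levels ran most like those of each member were taken over 28 points, each a class of at least 50 cells in a library, by Pearson's r of log2(CPM + 1) among 14282 genes, as a description in which points of a library share its depth. For Ren1 they were 8030451O07Rik (0.895), Akr1b7 (0.894) and Art3 (0.893), and for Ace Slc5a1 (0.934), Sult1c2 (0.923) and Cubn (0.922), of which Cubn is a proximal tubule marker used in naming. For Agtr1a they included Prickle2 (0.894) and Rasl12 (0.887), and for Agtr2 Mrvi1 (0.947), Cygb (0.941) and Cd248 (0.932). Atp6ap2 ran most like 2610528J11Rik (0.945), Hnf1aos1 (0.915) and Tmem125 (0.915). For Agt, whose pattern rests on 10, 5 and 3 UMIs, they were Slc22a30, Slc7a13 and Slc22a28 (0.952, 0.947 and 0.933).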

How the data were processed

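Single-cell RNA sequencing (10x Genomics) was made from whole kidney suspensions of pooled E15.5 embryos, 1 library per group. The deposited matrices hold raw counts of UMIs per gene and barcode, which the authors made with Cell Ranger 6.1.2 and mm10 per the submitters' processing notes; the annotation is not given in the sources used here, and positions come from the GENCODE genes of the same build. Genes were matched by symbol. Barcodes with 1000 to 6000 genes and at most 10% mitochondrial UMIs were kept, after the study's stated filter, which leaves the study's number of Enl-T1 cells, 1 cell more than its number for Enl-WT and 2 more for the treated library. The 3 libraries were integrated and clustered in Seurat 5.3.0 (R 4.3.3; canonical correlation anchors, 30 components, resolution 0.5, 17 clusters), and the nephron and stroma lineages again (20 components, resolution 0.8, 13 and 11 clusters).

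No map of cells to the study's types was used here, so classes were rebuilt and may differ from the study's. Of 2000 variable genes per step, pathway members, Hox genes, electron transport genes and technical genes were left out. The study named its renin/mesangial class by Ren1 and Akr1b7, which were used neither for clustering nor for naming here. A cluster took a class name from at least 3 detected markers. Scrublet (scanpy 1.11.5) called 123, 41 and 2 doublets in the Enl-WT, Enl-T1 and treated libraries, 0.0726% of the last, where the caller had not worked and the 61 highest scores were taken in its place. Doublets stayed in the main values and were removed in an alternative.

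Levels are CPM, the UMIs of a gene summed over the kept cells of a class and scaled by the total of all their UMIs. Ratios of levels have exact intervals from the binomial split of the 2 counts, shares have Clopper-Pearson intervals, all at 95% and for counting error only, and a count of 0 is given with the limit of 3 counts. Barcodes under 2000 UMIs were left out of thinned shares. Counts of genes take those whose mean level in the libraries compared reached 5 CPM, and a gene past 1.5-fold was counted. The median log2 ratio of all genes is given once as the shift of the scale. No p-value was computed, since no group has a second library. The steps were tested on simulated counts. Of the list genes, those with at least 10 CPM in a class were named, at most the 6 highest of each list, and any past 1.5-fold in the class of its highest level, with the 3 genes most like each member. The members and lists were chosen with earlier results of these data known. The analysis used Python 3.11.15, numpy 2.4.6, scipy 1.17.1, pandas 2.3.3 and matplotlib 3.10.9. Some genes of the lists and marker sets are not reported here.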

Additional observations from a re-analysis of the deposited data

Results flagged for a closer look

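Effects of opposite sign between cell classes were found for 2 members, and the differences between classes were not tested, since each rests on 1 library per group. The ratio of Enl-T1 to Enl-WT of Agtr2, the type 2 receptor gene, was 1.63 (1.12 to 2.37) in renin/mesangial-like cells and 0.321 (0.207 to 0.489) in Foxd1-like stroma. The name of that stroma class is weak, as described above. The ratio of Enl-T1 to Enl-WT of Atp6ap2, the prorenin receptor gene, was 1.85 (1.03 to 3.38) in renin/mesangial-like cells and 1.12 (1.02 to 1.23) in ureteric epithelium, against 0.700 (0.539 to 0.899) in distal tubule/loop of Henle-like cells.

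Barcodes that the cell filter removed, which enter no level or ratio of a class, held members too. Ace stood at 27.4 CPM in the removed Enl-WT barcodes, against 7.93 CPM in the kept ones. In the same barcodes Agtr1a stood at 7.32 CPM against 4.43 kept, Ren1 at 6.93 against 85.6 and Agtr2 at 4.24 against 7.99. Atp6ap2 stood at 70.7, 76.6 and 69.8 CPM in the removed barcodes of the Enl-WT, Enl-T1 and treated libraries.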

How the results depend on the processing

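Of 303 alternative values for 78 results, 5 turned the sign of a ratio past 1.5-fold and 13 more gave no value. Another 38 values for the leading results and 21 for the rest left the interval of the main value or changed the class named. Of 114 alternative values for ratios past 1.5-fold, 109 kept the sign and 103 stayed past 1.5-fold. The log2 ratio of Ren1 in all kept cells, Enl-T1 over Enl-WT, stayed below 0 throughout: -2.48 with median-of-ratios scaling, -2.61 with totals free of mitochondrial, ribosomal and haemoglobin genes, -3.94 with a stricter cell filter (1500 to 5000 genes, at most 5% mitochondrial), -2.97 with no filter, -3.13 without doublets, -2.12 as a mean over cells, -4.71 without the 5 richest cells, -8.25 in Y-only and -2.17 in Xist-only cells, and -1.64 without renin/mesangial-like cells. For TDI-11055 over Enl-T1 it was -0.81 with the stricter filter, -1.71 without the 5 richest cells, -8.23 in Xist-only cells and -1.94 without the class, but +3.53 in Y-only cells. In the stroma Ren1 was at -3.74 with median-of-ratios scaling and -6.16 without the 5 richest cells (-2.90 for TDI-11055 over Enl-T1), and in renin/mesangial-like cells at -1.97 and -4.46. Over all kept cells the 5 richest held 85.8% of the Ren1 UMIs in Enl-T1 and 46.8% in Enl-WT. Leaving them out therefore lowers the ratio of Enl-T1 to Enl-WT by its design.

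Agt, from few UMIs, turned to 0.75 under the stricter filter for Enl-T1 over Enl-WT, and to 1.16 as a mean over cells and 0.10 in Xist-only cells for TDI-11055 over Enl-T1. Ace was at -3.50 with the stricter filter. Agtr1a was at -0.71 with no filter, and for TDI-11055 over Enl-T1 at -1.92 as a mean over cells and -0.67 in Y-only cells. In Foxd1-like stroma it turned from 0.70 to -0.51 when cells were clustered on all variable genes. Agtr2 was at 0.54 with median-of-ratios scaling, -0.056 with no filter and 0.53 in Xist-only cells for Enl-T1 over Enl-WT, at -2.23, -2.29 and -1.56 for TDI-11055 over Enl-T1 with the stricter filter, without the 5 richest cells and in Y-only cells, and at -2.46 in Foxd1-like stroma without the 5 richest cells. Atp6ap2 was at 0.16 with median-of-ratios scaling, 0.030 with reduced totals, -0.071 with the stricter filter, 0.0051 with no filter and -0.28 in Y-only cells, and at 0.33 with the stricter filter for TDI-11055 over Enl-T1. The class of the highest level in the treated library became intermediate-like at 4.90 CPM for Ren1 as a mean over cells and distal tubule/loop of Henle-like at 78.0 CPM for Atp6ap2 when clustered on all genes. The causes were not tested. The sex split, the richest cells left out and the class left out were chosen after seeing the data.

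No paired analysis was possible because each group has 1 library, and so no replicate was left out. Depth limits Agt everywhere, and Enl-T1 and treated proximal tubule-like, podocyte-like and treated renin/mesangial-like cells are too few for ratios.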
